A study of Mus with 9 samples.

Results

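The 7 genes described here are Srebf2, Hmgcs1, Fdft1, Sqle, Cyp51, Dhcr7 and Cyp46a1, which code for the master regulator, 5 enzymes and the main brain exit route of cholesterol. They were found in the hippocampus data by gene symbol. Each of the 7 had 1 probe set, out of 22203 probe sets with a gene symbol that together name 22662 unique symbols. The study profiled hippocampal RNA on Clariom S Mouse arrays, with 3 arrays in each of 3 groups by the sample records. The SAMR1 group, a senescence-resistant strain used as the normal aging control, and the SAMP8 group, a senescence-accelerated strain with early memory decline, received vehicle only. The TG-treated SAMP8 group received oral trigonelline (TG), a plant alkaloid, at a daily dose of 5 mg/kg over 30 days and on through 8 days of water maze testing. The study's methods describe male SAMP8 mice 16 weeks old, and that age is listed for all 3 groups. By the methods, acclimatization, dosing and maze testing followed, so the hippocampus was taken at a later age. All groups were trained in the maze. The vehicle is named as water in the methods and as saline in the sample records. SAMP8 and SAMR1 are separate inbred strains, so their difference covers their whole genetic background. The tissue holds many cell types, so fewer cells of a type and less RNA per cell cannot be told apart.

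Cholesterol hardly crosses the blood-brain barrier, so the brain makes its own. Synthesis starts from acetyl-CoA and runs through mevalonate, squalene and lanosterol, and its genes are switched on together by SREBP2, the product of Srebf2, when sterol in the endoplasmic reticulum is low. In the adult brain, astrocytes and oligodendrocytes make much of the cholesterol, most of which lies in myelin, whereas neurons carry out the first step of its removal.

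The authors' deposited tables list 1 average per group for each probe set, as log2 signal after SST-RMA. Values of single arrays were not used here, so the error of the averages is not known and no test across mice was run. The authors' own p-values were set aside. A difference below says how far 2 averages lie apart, not whether mice of the groups differ. A difference of 1 on the log2 scale is a 2-fold difference. A probe set was called past the limit when its averages differed by 1.5-fold or more (0.58 on the log2 scale), which is a limit of size. The SAMP8 averages were identical in both tables, so SAMP8 is shared by the strain comparison and the TG comparison, and a high or low SAMP8 average enters both with opposite sign. Probe sets differ in their probes, so only the same gene is compared between groups.

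Srebf2, the gene of SREBP2, lies on chromosome 15 from 82147269 to 82205379 (GRCm38). SAMR1 averaged 14.01, SAMP8 14.36 and TG-treated SAMP8 14.16. SREBP2 is held in the membrane as a precursor and is active only after cleavage, which an RNA level does not show. The SAMP8 average was the highest of the 3, by 0.35 over SAMR1 and 0.20 over TG-treated SAMP8 on the log2 scale.

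Hmgcs1 lies on chromosome 13 from 119690351 to 119708260 and codes for cytosolic HMG-CoA synthase, an early enzyme of the mevalonate steps. SAMR1 averaged 14.08, SAMP8 14.30 and TG-treated SAMP8 again 14.08. SAMR1 and TG-treated SAMP8 were thus listed at the same value, and the whole range of the gene was 0.22, the narrowest of the 7.

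Fdft1, on chromosome 14 from 63145150 to 63181687, codes for squalene synthase, the first enzyme committed to sterols. SAMR1 averaged 9.86, SAMP8 10.32 and TG-treated SAMP8 10.26. Both SAMP8 groups stood above SAMR1 and within 0.06 of each other.

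Sqle, on chromosome 15 from 59315092 to 59331193, codes for squalene epoxidase, a further control point of the pathway. SAMR1 averaged 7.95, SAMP8 8.19 and TG-treated SAMP8 8.50. It was the only synthesis gene of the 7 whose highest average was that of the TG-treated group.

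Cyp51, on chromosome 5 from 4080674 to 4104697, codes for lanosterol demethylase, a cytochrome P450. SAMR1 averaged 9.93, SAMP8 10.64 and TG-treated SAMP8 10.25. Here the SAMP8 average stood apart from both others, and that of the TG-treated group lay between them.

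Dhcr7, on chromosome 7 from 143823167 to 143848410, codes for the reductase that turns 7-dehydrocholesterol into cholesterol. SAMR1 averaged 8.58, SAMP8 8.25 and TG-treated SAMP8 7.65. Unlike the other 6 genes it was highest in SAMR1, and its range of 0.93 was the widest of the 7.

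Cyp46a1, on chromosome 12 from 108334268 to 108362234, codes for cholesterol 24-hydroxylase, a mainly neuronal enzyme whose product leaves the brain through the blood-brain barrier. SAMR1 averaged 9.47, SAMP8 9.95 and TG-treated SAMP8 9.99. As for Fdft1, the 2 SAMP8 groups lay close together and above SAMR1.

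**Figure D1:**
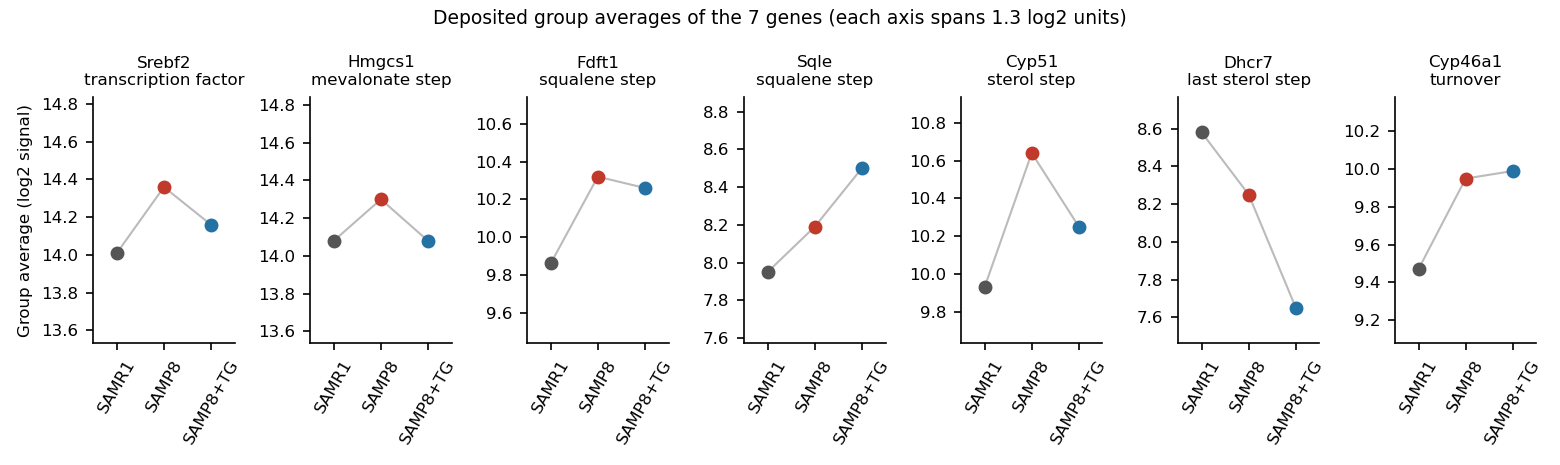
Deposited group averages (vertical axis, log2 signal) of the 7 genes in SAMR1, SAMP8 and TG-treated SAMP8 (SAMP8+TG), 1 point per group average with no error bars; every panel spans 1.3 log2 units, so distances can be compared but heights of different genes cannot. Srebf2, Hmgcs1, Fdft1 and Cyp51 are highest in SAMP8, Sqle and Cyp46a1 are highest in TG-treated SAMP8, and Dhcr7 is highest in SAMR1.

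The comparison of SAMP8 with SAMR1 asks how the senescence-accelerated strain differs from its control without treatment. In SAMP8, 6 of the 7 genes had a higher average and 1, Dhcr7, a lower one. The median of the 7 differences was 0.35, against 0.00 over all probe sets, of which 49.5% were higher and 49.0% lower. Cyp51 was 1.64-fold higher (difference 0.71), and 2.85% of all probe sets were at least as far above SAMR1. Cyp46a1 was 1.39-fold and Fdft1 1.38-fold higher, with 8.32% and 9.16% of all probe sets at least as high. Srebf2 was 1.27-fold, Sqle 1.18-fold and Hmgcs1 1.16-fold higher, and at least 14.7% of all probe sets were as high as any of these 3. Dhcr7 was 1.26-fold lower. Past the limit of 1.5-fold were 1 of the 7 genes, Cyp51, and 11.1% of all probe sets (5.00% higher and 6.08% lower), so the share of the 7 is near that of the array as a whole.

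The brightness of the probe sets moved with this direction. Among the 6595 probe sets whose mean signal was at least that of the dimmest of the 7 genes (8.16), 66.9% were higher in SAMP8, with a median of 0.12, and 7.61% were past the limit on the higher side. When the running median of probe sets of like signal was subtracted, 6 of the 7 genes were still higher and their median was 0.26, and Cyp51 stood at 0.57, just short of the limit. With the 3 averages brought to 1 common distribution, Cyp51 stood at 0.55. The other higher genes came closer to SAMR1 under these 2 corrections. In the order common distribution and running median, the differences were 0.29 and 0.31 for Fdft1, 0.33 and 0.34 for Cyp46a1, and 0.26 under both for Srebf2. Those of Sqle were 0.14 under both, and those of Hmgcs1 were 0.12 and 0.13. Dhcr7 went further below SAMR1, to -0.45 and -0.44. The part of signal in the higher averages was not tested beyond these values.

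**Figure D2:**
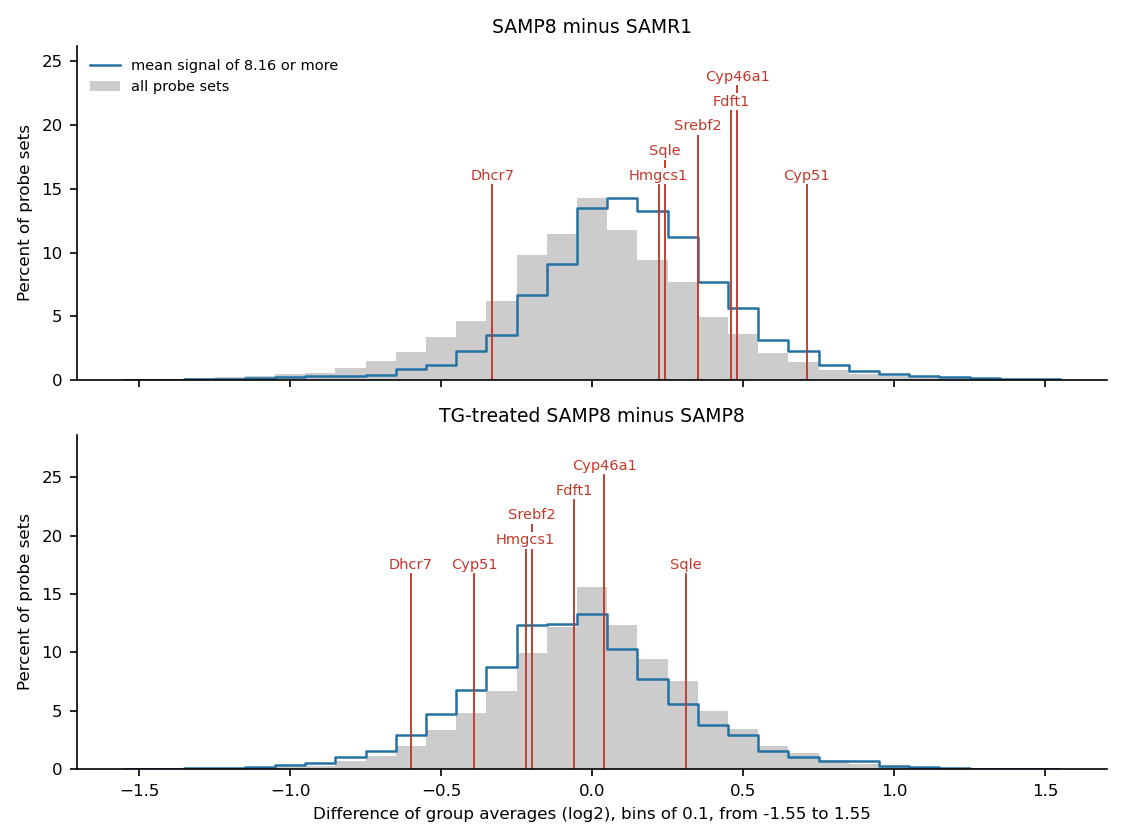
Distribution of the differences of group averages (horizontal axis, log2, bins of 0.1; vertical axis, percent of probe sets) over all probe sets (grey bars) and over those with a mean signal of 8.16 or more (blue line), with the 7 genes as labelled red lines. In the upper panel 6 of the 7 genes lie to the right of 0 and the blue line is shifted the same way (median 0.12), and in the lower panel 5 lie to the left of 0 (4 under either correction for signal), where the median of the blue line is -0.06.

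The comparison of TG-treated with nontreated SAMP8 asks how the treated and vehicle groups of the strain differed. With TG, 5 of the 7 genes had a lower average and 2 a higher one, with a median difference of -0.20 against 0.01 over all probe sets (50.0% higher, 48.3% lower). Dhcr7 was 1.52-fold lower (difference -0.60), and 3.48% of all probe sets were at least as low. Cyp51 was 1.31-fold, Hmgcs1 1.16-fold and Srebf2 1.15-fold lower, and 10.8% of all probe sets were as low as Cyp51. Fdft1 (-0.06) and Cyp46a1 (0.04) hardly differed, and 83.2% and 89.1% of all probe sets differed by at least as much in size. Sqle was 1.24-fold higher, with 16.5% of all probe sets at least as high.

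Past the limit were 1 of the 7 genes, Dhcr7, and 8.22% of all probe sets (4.48% higher and 3.74% lower). Here too the brighter probe sets leaned the same way as the genes, with 57.9% of the 6595 lower and a median of -0.06. After subtraction of the running median by signal, Dhcr7 stood at -0.56, just inside the limit, Fdft1 at 0.00, and 4 of the 7 genes were lower. With 1 common distribution, Dhcr7 stood at -0.56 as well, Fdft1 turned to 0.02, and 4 genes were lower and 3 higher.

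Set against SAMR1, the TG-treated SAMP8 averages show which genes lay apart from the control strain. These averages come from different tables, whose SAMP8 columns are the same. Dhcr7 was 1.91-fold lower than in SAMR1 (difference -0.93), and 0.932% of all probe sets were at least as low. Sqle was 1.46-fold, Cyp46a1 1.43-fold and Fdft1 1.32-fold higher, and 6.56%, 7.35% and 12.3% of all probe sets were as high. Cyp51 was 0.32 and Srebf2 0.15 higher, and Hmgcs1 was listed at the same value. Past the limit were 1 of the 7 genes, Dhcr7, and 10.5% of all probe sets (5.62% higher and 4.83% lower). Dhcr7 stayed past the limit here with 1 common distribution (-1.01) and after subtraction of the running median (-0.96). No other of the 7 genes was past the limit in any comparison under every scaling tried.

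The other enzymes were taken from a list of the pathway's steps and the side-branch enzyme Ggps1, 22 enzymes with the 5 above. Each was measured by 1 probe set. In SAMP8, 18 of the 22 were higher than in SAMR1 and 4 lower, with a median of 0.28 for the 17 enzymes outside the 7 genes, of which 14 were higher. Past the limit were 2 of the 22, Cyp51 and Ggps1, both higher, and 0 lower, against 11.1% of all probe sets. Ggps1, which makes geranylgeranyl diphosphate for protein prenylation on a side branch, was listed at 8.74 in SAMR1 and 9.78 in SAMP8, a 2.06-fold difference. Idi1 and Mvd of the mevalonate steps and Nsdhl of the sterol steps had differences of 0.50, 0.49 and 0.50. Besides Dhcr7 the lower ones were Lbr (-0.23), Tm7sf2 (-0.11) and Fdps (-0.08). Lbr and Tm7sf2 code for the enzymes that carry out the same sterol reduction. Under either correction for signal, 15 of the 22 were higher and 7 lower.

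With TG, 15 of the 22 enzymes were lower and 7 higher, with a median of -0.06. By step, 5 of the 9 mevalonate enzymes (median -0.04, or 0.01 under either correction for signal) and 10 of the 13 squalene and sterol enzymes were lower. Dhcr7 was the only enzyme past the limit, against 8.22% of all probe sets (4.48% higher and 3.74% lower). Under either correction for signal 0 of the 22 were past it. Lss, which closes squalene epoxide into lanosterol, was listed at 10.02 in SAMP8 and 9.50 with TG (-0.52), and Idi1 at 8.56 and 8.17 (-0.39). Fdps, which makes farnesyl diphosphate, was higher by 0.37 and Mvd by 0.34. Under either correction for signal 12 of the 22 were lower. Against SAMR1, Mvd (0.83) and Ggps1 (0.80) were past the limit on the higher side in the TG-treated group, and Dhcr7 (-0.93) on the lower. These were 2 and 1 of the 22 enzymes, against 5.62% and 4.83% of all probe sets.

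**Figure D3:**
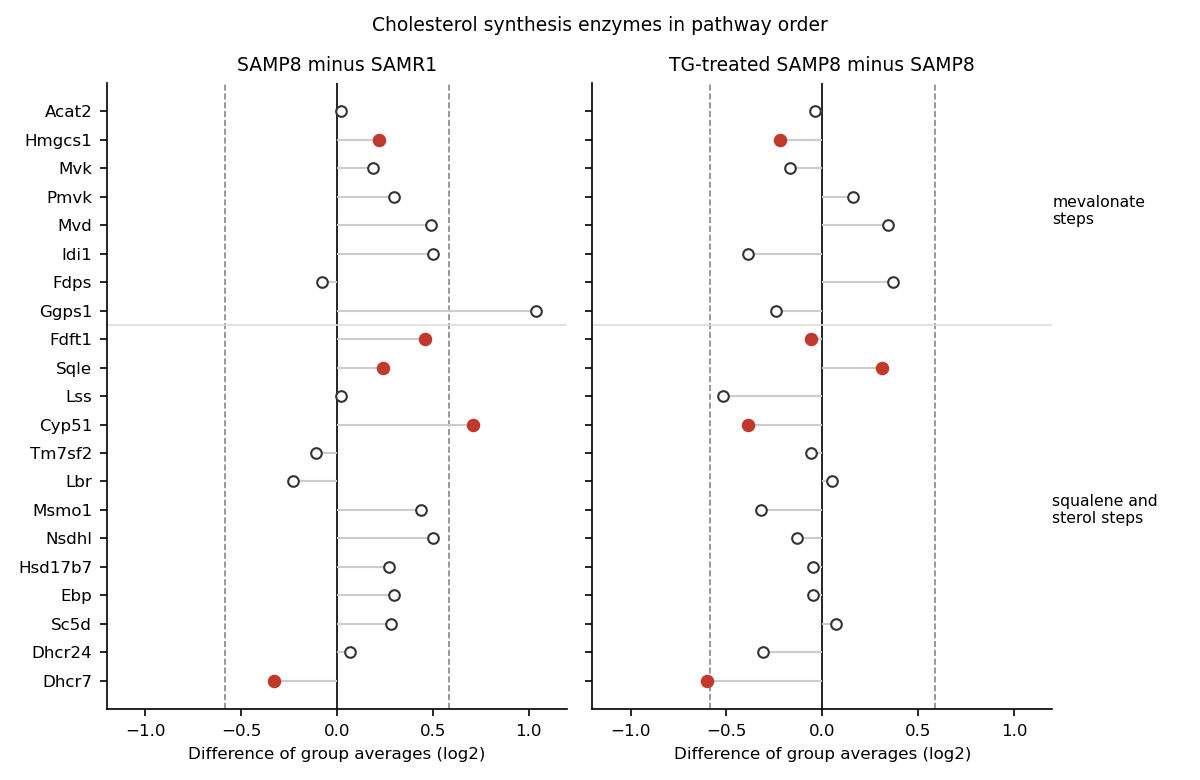
Differences of group averages (horizontal axis, log2) for 21 of the 22 enzymes, in SAMP8 minus SAMR1 and TG-treated SAMP8 minus SAMP8. Enzymes are in the order of the pathway, with Ggps1, of a side branch, placed last of the mevalonate steps. Red points are the genes of the report, open points the other enzymes, and dashed lines the 1.5-fold limit. In the left panel 17 of 21 points lie right of 0 (of all 22 enzymes, 18, or 15 under either correction for signal), with Ggps1 (1.04) and Cyp51 (0.71) past the limit, and in the right panel 15 lie left of 0 (of all 22, also 15, or 12 under either correction), with Dhcr7 (-0.60) past it.

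The genes that hold SREBP2 back or release it were read next to Srebf2, in a list of 11. Scap, the escort that carries the precursor to the Golgi, and Mbtps1 and Mbtps2, the proteases that cut it free there, had lower averages with TG. Scap was listed at 10.31, 10.49 and 9.79 in SAMR1, SAMP8 and TG-treated SAMP8. Mbtps1 was listed at 9.44, 9.85 and 9.19 in the same order, and Mbtps2 at 9.98, 10.67 and 9.72. For each of these 3 genes the TG-treated average was the lowest of the 3 groups. The differences with TG were -0.70 for Scap, -0.66 for Mbtps1 and -0.95 for Mbtps2 (1.62-fold, 1.58-fold and 1.93-fold), and all 3 stayed past the limit under either correction for signal (from -0.59 to -0.89). They were the only genes of this list past the limit in the TG comparison, in which 9 of the 11 genes were lower (7 under either correction) and 2 higher. Of all probe sets 8.22% were past the limit in that comparison, 3.74% on the lower side.

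Insig1 and Insig2 code for the anchors that keep Scap in the endoplasmic reticulum when sterol is plentiful. Insig1, itself a target of SREBP, was listed at 9.91 in SAMR1, 10.30 in SAMP8 and 10.02 with TG. Insig2 was listed at 7.91, 7.32 and 7.11, so it was past the limit in SAMP8 on the lower side (-0.59), opposite to Insig1 (0.39). In the strain comparison 9 of the 11 genes were higher and 2 lower, with a median of 0.35 (0.22 and 0.25 under the corrections). Mbtps2 (0.69) was past the limit on the higher side. Mbtps2 was below it under either correction for signal (0.53 and 0.55). Srebf1, the sister factor that mainly drives fatty acid synthesis, was listed at 5.54, 5.95 and 6.18, and the TG-treated group was 1.56-fold above SAMR1.

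Uptake and transport inside the cell were covered by 14 genes. In the strain comparison 8 were higher, 3 lower and 3 equal, or 7 higher and 6 lower under either correction for signal, and 0 were past the limit, against 11.1% of all probe sets. With TG, 7 genes of this list were higher and 7 lower, with a median of -0.01 that turned to 0.02 under either correction for signal. On the lower side 2 of the 14, Vldlr and Lipa, were past the limit with TG, and on the higher side 0. Of all probe sets 3.74% and 4.48% were past it on these sides. Vldlr, a receptor for lipoproteins and for reelin, was listed at 10.45, 10.76 and 9.77, and was 1.99-fold lower with TG (-0.99). Lipa, the lysosomal lipase that frees cholesterol from its esters, was listed at 7.18, 7.46 and 6.75 (-0.71 with TG).

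Efflux and its control by the liver X receptors (LXR), which sense oxysterols, were covered by 10 genes, 5 of which were higher and 5 lower in SAMP8 (median 0.08). In the strain comparison 2 of the 10 genes were past the limit on the higher side and 1 on the lower. Of all probe sets 5.00% and 6.08% were past it on these sides. Abcg1 and Abca1, exporters that are both LXR targets, lay past the limit there on opposite sides. Abcg1 was listed at 8.05 in SAMR1, 8.89 in SAMP8 and 8.98 with TG. Abca1 was listed at 8.94, 8.34 and 8.57. Apod, a lipid carrier of glia, was 1.68-fold higher in SAMP8 than in SAMR1 (0.75). Nr1h2, the LXR form found in most tissues, was listed at 7.18, 7.39 and 8.21, so that TG-treated SAMP8 was 1.77-fold above SAMP8. Nr1h3, the gene of the other LXR form, was listed at 6.28, 5.79 and 6.32. With TG, 7 of the 10 genes were higher and 3 lower, against 50.0% and 48.3% of all probe sets. Nr1h2 was the only gene of this list past the limit with TG, against 8.22% of all probe sets.

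Turnover and storage were covered by 11 genes with Cyp46a1. In the 3 comparisons 0 of the 11 were past the limit, against 11.1%, 8.22% and 10.5% of all probe sets, and Cyp46a1 had the largest strain difference of the list, 0.48. Of the 11 genes, 4 lay among the dimmest 25% of probe sets, Ch25h and Cyp27a1 among them. Ch25h, which makes 25-hydroxycholesterol, was listed at 3.32, 3.32 and 3.29, and Cyp27a1, which makes 27-hydroxycholesterol, at 4.08, 4.21 and 3.99. At such levels the array background and a signal cannot be told apart here. Cyp7b1, which acts on oxysterols, was listed at 8.45, 8.63 and 8.33. Soat1, which esterifies cholesterol for storage, was listed at 10.32, 10.54 and 10.52, and Nceh1, which hydrolyses the esters, at 13.43, 13.73 and 13.63. For Soat1 and Nceh1 the order of the groups was that of Fdft1, with both SAMP8 groups above SAMR1.

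**Figure D4:**
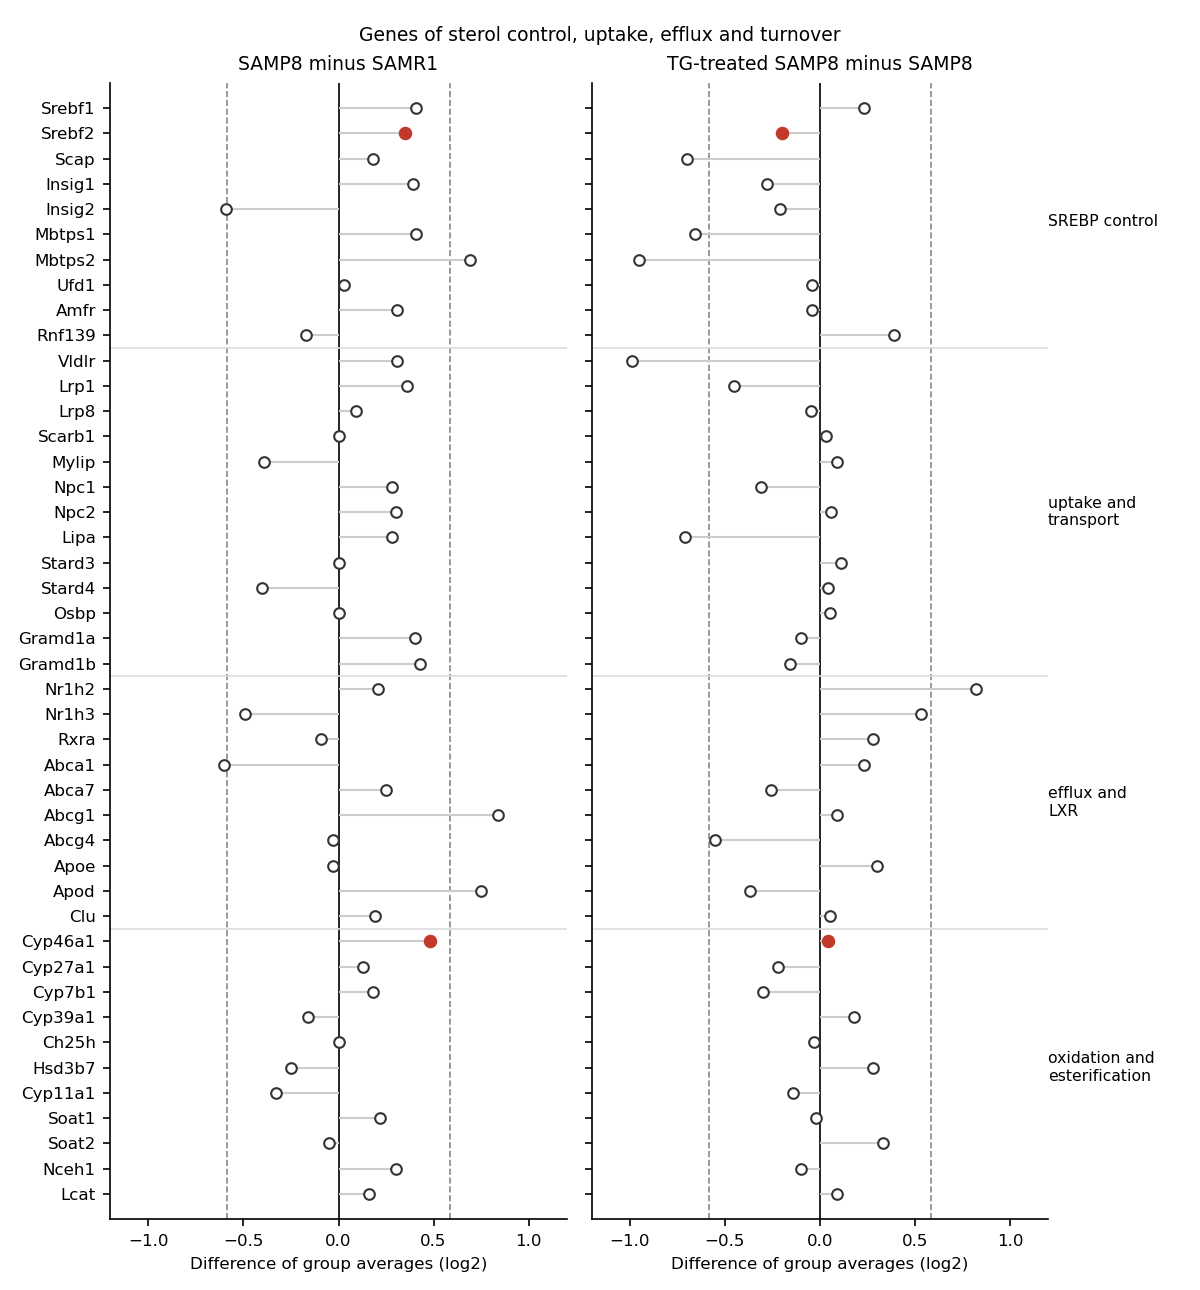
Differences of group averages (horizontal axis, log2) for genes of SREBP control (10 of the 11), uptake and transport (13 of the 14), efflux and LXR (10) and oxidation and esterification (11), drawn as for the enzymes above, with Srebf2 and Cyp46a1 in red. With TG, Scap (-0.70), Mbtps1 (-0.66), Mbtps2 (-0.95), Vldlr (-0.99) and Lipa (-0.71) lie past the left dashed line and Nr1h2 (0.82) past the right one.

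The median pattern of the 7 genes was compared with that of the 61 other genes of these lists. The measure was the distance between a gene's pair of differences (strain, TG) and the median pair of the 7 (0.35 and -0.20). That pair is the pair of Srebf2 and was not shared by the 7. Dhcr7 (-0.33 and -0.60) and Sqle (0.24 and 0.31) lay farther from it than the genes named next. Nearest were Gramd1b (0.43 and -0.16) and Insig1 (0.39 and -0.28), both at a distance of 0.09 on the log2 scale, and Nceh1 (0.30 and -0.10) at 0.11. Of all probe sets, 1.91% lay at least as near as the first of these, so 3 averages mark out no narrow set of genes.

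Markers of cell types were read for the tissue and beside the 7 genes. All 7 markers of hippocampal excitatory neurons, among them Slc17a7 (18.02 in SAMR1, 18.12 in SAMP8 and 18.11 with TG) and Prox1 (11.26, 11.85 and 11.00), lay above the dimmest 25% of probe sets. Prox1 was the marker of that list with the largest difference. The markers of neurons had a median difference of 0.11 between the strains, which turned to -0.01 after subtraction of the running median, and of 0.05 with TG. Of the 7 neuron markers 4 were higher in SAMP8, 2 lower and 1 equal, or 3 higher and 4 lower after that subtraction. Map2 was the neuron marker with the largest strain difference, -0.66, and Stmn2 was nearly as far on the other side, 0.64.

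All 7 astrocyte markers were higher in SAMP8 than in SAMR1 (median 0.17, 6 of 7 with 1 common distribution and 5 of 7 after subtraction of the running median), as 6 of the 7 sterol genes were. Gfap had the largest strain difference of that list, 0.95, with averages of 11.08, 12.03 and 11.92. With TG 5 of the 7 were lower (median -0.03), or 4 and 3 under the corrections for signal, the latter with a median of 0.02. The oligodendrocyte markers went opposite to the sterol genes in both comparisons. Of 9, 6 were lower in SAMP8 (median -0.25) and 8 were higher with TG (median 0.39). Mal was listed at 13.91, 13.39 and 14.20, and Mobp had the largest strain difference of that list, -0.80. The mean level over the 9 markers was 11.20 in SAMR1, 11.03 in SAMP8 and 11.42 with TG. The part of either cell type in the sterol gene averages was not tested.

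Markers of other cells differed between the averages as well. Of the 4 markers of oligodendrocyte precursors 3 were higher in SAMP8, led by Cspg4 (0.55), and 3 were lower with TG. Of 6 microglia markers 3 were higher and 3 lower in SAMP8, with Aif1 the farthest (1.51). All 5 endothelial markers were lower with TG (median -0.22), with Slco1a4 the farthest at 11.62 in SAMP8 and 10.62 with TG, and 4 were higher in SAMP8. Of 8 markers of the meninges and choroid plexus, 6 were lower with TG (median -0.59), with Ptgds at -2.69, and 5 were higher in SAMP8. Their mean level was 7.48 in SAMR1, 7.96 in SAMP8 and 7.23 with TG. By this mean SAMP8 was the highest of the 3 groups, as it was for Srebf2, Hmgcs1, Fdft1 and Cyp51. The TG-treated mean was the lowest here, whereas in those 4 genes SAMR1 was lowest or, for Hmgcs1, level with the TG-treated group. Ptgds, listed at 9.39, 10.26 and 7.57, weighed on that low mean. By contrast, 2 of the 8 markers, Ttr (8.45, 9.33 and 10.05) and Col1a1, were highest with TG. The part of these cell types in the sterol gene averages was not tested.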

How the data were processed

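RNA was hybridized to Clariom S Mouse arrays, and the authors summarized the intensities by SST-RMA in the Transcriptome Analysis Console. The 2 deposited tables list 22206 probe sets, annotated on mm10, with the authors' group averages as log2 signal, given to 2 decimals. Their further columns hold the authors' fold changes, p-values and adjusted p-values of each comparison, which were not used. Groups were taken from the sample titles. The series text speaks of duplicate samples and the records of 3 arrays per group, and a description attached to the records is about a cell line and was not used. Depth is no measure of an array, and the number of arrays limits the precision.

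Differences of averages were computed for the 22203 probe sets with a gene symbol (3 had none) in Python 3.11.15 with numpy 2.4.6, pandas 2.3.3 and matplotlib 3.10.9. Where a symbol was older, the gene was matched by its synonym. Gene spans are from RefSeq on GRCm38. Alternatives were centring, a common distribution of the 3 averages, a running median over 1001 probe sets of like signal, fold limits of 1.1, 1.2 and 2, leaving out the dimmest 25% of probe sets, and unique symbols. The steps were tested on simulated data. The 7 genes and the lists were chosen with earlier results of these data known. Named are the 7 genes, fixed pathway genes, list genes past 1.5-fold, the 3 nearest in pattern, and of each marker list the gene with the largest difference, and further enzymes and markers were named after their values were seen. Some of these genes are counted in their lists but not reported here by name.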

Additional observations from a re-analysis of the deposited data

How the results depend on the processing

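No paired analysis was possible because the deposited tables hold 1 average per group, and for the same reason no array could be left out. The 7 genes have 1 probe set each, so averaging probe sets changed none of them. Of 84 recomputed differences of the 7 genes, 76 moved by at most 0.1 and 1, Fdft1 with TG, changed sign. The 84 include the averaging of probe sets, which could move no value, and centring, which could move none by more than 0.01. The 8 that moved further were all strain differences. They were those of Cyp51, Dhcr7, Fdft1 and Cyp46a1, each with 1 common distribution and with the running median. With 1 common distribution or the running median by signal, 0 of the 7 genes were past the limit in the strain comparison and 0 with TG, in place of 1 each, and 2 genes in place of 1 were below SAMR1 in the TG-treated group (Hmgcs1 joined Dhcr7). The strain medians moved from 0.27 to 0.16 and 0.17 for the sterol enzymes in the same order of settings, and with 1 common distribution from 0.35 to 0.22 for SREBP control and from 0.19 to 0.08 for uptake (0.09 with the running median). Between the strains, at a limit of 1.1-fold 7 of the 7 genes and 14552 of the 22203 probe sets were past it. Most of the array thus passed that limit too. At 1.2-fold the counts were 5 and 9054, and at 2-fold 0 and 513. With TG the counts were 5 and 14072, 3 and 8476, and 0 and 181. For TG-treated SAMP8 against SAMR1 they were 6 and 14404, 5 and 8998, and 0 and 410.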
